A study of Homo sapiens with 6 samples.

Results

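The genes described here are the long noncoding RNA genes that were expressed in LA1-55n, an established human neuroblastoma cell line. They were chosen by symbol and by level: the symbol starts with LINC or SNHG, ends in HG after MIR and a number, or carries -AS with a digit, -IT or -DT, and the mean over all 6 arrays is 5 or more on the deposited log2 intensity scale, on which the median of all probe sets lay between 4.28 and 4.33 on each array. The symbol rule found 1096 measured genes, and 189 of them reached the level of 5, out of 14779 measured genes in all. The level was used to choose the members, so their being expressed is no finding; the difference between the groups was not used. By class the 189 genes were 84 antisense genes (-AS), 51 intergenic LINC genes, 32 divergent transcripts (-DT), 8 intronic transcripts (-IT), 7 microRNA host genes and 7 small nucleolar RNA host genes (SNHG). Just below the limit lay LINC00339 at 4.98, KTN1-AS1 at 4.99 and BCDIN3D-AS1 at 4.99, and just above it LINC00163 at 5.001, MIR7-3HG at 5.001 and PITRM1-AS1 at 5.02.

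RNA was measured on 6 single-colour Affymetrix arrays. In 3 of them the cells carried a doxycycline-inducible hairpin against GFP (shGFP, the control) and in 3 a doxycycline-inducible hairpin against glycine decarboxylase (shGLDC99). Both groups were grown with 0.5 µg/ml doxycycline for 7 days, so the controls had the drug and an induced hairpin too, and cells without a hairpin or without doxycycline are not analysed here. Each target had 1 hairpin, so loss of GLDC and other effects of that hairpin cannot be told apart. The series design names 3 independent samples per group. Whether the replicates a, b and c came from separate cultures is not spelled out, and p-values then measure only the spread between these samples.

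GLDC itself was 7.85, 7.90 and 7.81 in the shGFP arrays and 5.98, 5.65 and 5.93 in the shGLDC99 arrays, 4.01-fold lower with the hairpin against it (limma adjusted p = 0.00101). Of 9 measured sympathetic and neuroblastoma markers, 8 lay at 5 or more, and DBH lay at 4.52. Of the 9, 3 changed: ISL1 differed by -1.09 (limma adjusted p = 0.00412), GATA3 by -0.48 and CHGB by 0.41; their part in the results below was not tested. Of 8 measured markers of endothelium, fibroblasts, leukocytes and Schwann cells, 0 reached 5 (levels 1.70 to 4.67). The mean of the 2 measured fibroblast markers was 2.47 to 2.63 in the shGFP arrays and 2.82 to 2.89 in the shGLDC99 arrays, where LUM rose, and its part in the results below was not tested. In RNA of a whole culture, fewer cells of a type and less RNA per cell cannot be told apart.

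Long noncoding RNAs are transcripts without a long reading frame, mostly made by RNA polymerase II. Antisense and divergent transcripts come from the opposite strand at, or upstream of, a protein-coding gene and often share its promoter region; intronic transcripts lie within introns; LINC genes stand between coding genes. Host genes carry small RNAs in their introns or exons: microRNA hosts are cut by the Microprocessor complex to release hairpins, and SNHG transcripts give up small nucleolar RNAs, guides for ribosomal RNA modification, when their introns are spliced out. Many spliced SNHG RNAs start with a run of pyrimidines, as ribosomal protein mRNAs do, and are removed by nonsense-mediated decay.

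The microRNA hosts that changed were MIR17HG and MIR600HG, and MIR181A1HG held the small RNA whose own probe set rose. A mature sequence from each hairpin of these hosts is therefore shown (RefSeq, GRCh38.p14, 5′ to 3′, with capitals for the seed, bases 2 to 8). Where both arms of a hairpin were listed, the other arm is not shown, and the seeds named here are those of the sequences shown. Of those from MIR17HG, miR-17-5p and miR-20a-5p share a seed and miR-19a-3p and miR-19b-3p share another, while miR-18a-5p and miR-92a-3p each have their own. Both miR-181 sequences shown, miR-181a-5p and miR-181b-5p, have the seed ACAUUCA.
hsa-miR-17-5p: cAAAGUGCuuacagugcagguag
hsa-miR-20a-5p: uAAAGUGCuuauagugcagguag
hsa-miR-18a-5p: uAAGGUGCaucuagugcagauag
hsa-miR-19a-3p: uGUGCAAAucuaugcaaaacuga
hsa-miR-19b-3p: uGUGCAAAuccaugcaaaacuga
hsa-miR-92a-3p: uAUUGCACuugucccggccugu
hsa-miR-600: aCUUACAGacaagagccuugcuc
hsa-miR-181a-5p: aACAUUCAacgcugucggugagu
hsa-miR-181b-5p: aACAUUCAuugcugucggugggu

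For pairs of a noncoding gene and the gene it is named after, promoter windows show how much start region the partners share. Each window runs from 250 bases before to 50 bases after a start in RefSeq GRCh38.p14; the sequence is that of the noncoding gene's strand, and capitals mark the bases that also lie in the partner's window. The 4 windows below belong to pairs described further on, in which 1 partner changed. The window of KDM7A-DT, which shares 223 bases with that of KDM7A, meets the same rule and is not shown.
GATA3-AS1, chr10:8053400-8053699, minus strand, 291 bases shared with GATA3: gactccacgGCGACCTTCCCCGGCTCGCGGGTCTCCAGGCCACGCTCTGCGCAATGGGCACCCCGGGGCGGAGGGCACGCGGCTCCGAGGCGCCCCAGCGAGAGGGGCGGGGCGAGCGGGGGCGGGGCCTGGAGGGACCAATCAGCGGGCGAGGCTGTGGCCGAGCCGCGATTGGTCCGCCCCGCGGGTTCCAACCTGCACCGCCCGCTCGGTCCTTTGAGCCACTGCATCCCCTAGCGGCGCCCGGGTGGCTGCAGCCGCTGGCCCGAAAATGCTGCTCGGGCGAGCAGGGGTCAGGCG
NUP50-DT, chr22:45163732-45164031, minus strand, 243 bases shared with NUP50: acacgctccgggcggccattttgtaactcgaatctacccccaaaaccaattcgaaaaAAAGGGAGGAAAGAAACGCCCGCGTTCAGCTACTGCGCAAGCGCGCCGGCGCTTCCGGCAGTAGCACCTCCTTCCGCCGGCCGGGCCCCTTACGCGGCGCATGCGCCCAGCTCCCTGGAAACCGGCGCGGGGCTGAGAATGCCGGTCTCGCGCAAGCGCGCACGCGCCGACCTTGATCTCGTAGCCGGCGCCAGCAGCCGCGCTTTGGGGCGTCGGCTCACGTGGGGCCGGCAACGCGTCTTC
CTBP1-DT, chr4:1249190-1249489, plus strand, 191 bases shared with CTBP1: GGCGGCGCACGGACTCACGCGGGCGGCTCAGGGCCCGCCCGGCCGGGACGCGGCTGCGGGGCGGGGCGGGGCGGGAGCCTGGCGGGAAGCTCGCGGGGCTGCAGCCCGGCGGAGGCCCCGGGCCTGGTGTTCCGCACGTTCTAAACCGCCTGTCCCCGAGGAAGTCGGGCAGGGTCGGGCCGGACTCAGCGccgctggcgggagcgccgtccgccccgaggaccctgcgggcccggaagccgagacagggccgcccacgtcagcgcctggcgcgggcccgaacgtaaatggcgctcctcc
ZNF674-AS1, chrX:46545240-46545539, plus strand, 168 bases shared with ZNF674: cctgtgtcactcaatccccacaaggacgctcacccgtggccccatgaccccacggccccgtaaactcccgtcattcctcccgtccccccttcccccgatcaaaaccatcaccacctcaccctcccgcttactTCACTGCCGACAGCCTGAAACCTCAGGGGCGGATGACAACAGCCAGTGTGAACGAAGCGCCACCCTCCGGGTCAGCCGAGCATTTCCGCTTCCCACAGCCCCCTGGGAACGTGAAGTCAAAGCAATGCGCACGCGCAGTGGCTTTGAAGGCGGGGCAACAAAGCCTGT

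Of the 189 expressed long noncoding RNA genes, 25 changed between shGLDC99 and shGFP cells. They were 18 that rose and 7 that fell, with a median log2 difference (shGLDC99 minus shGFP) of 0.041 over all 189 genes, against -0.012 over the 7587 genes of any kind at or above the same level. Of the 18 that rose, 10 were LINC genes, of which 0 fell; of the 7 that fell, 5 were antisense genes, 1 was CTBP1-DT and 1 was MIR17HG, the host of the miR-17 cluster. No SNHG gene was past the test. A gene is said to have risen or fallen where its adjusted p was under 0.05 in limma, with Benjamini-Hochberg adjustment over all 14779 genes.

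The changed share of the members, 13.2%, stood beside 13.9% of all genes at or above the level of 5 and 8.52% of all 14779 genes. Rises made up 9.52% of the members against 5.81% of genes at that level and 3.72% of all genes. Falls made up 3.7% of the members against 8.13% and 4.8%. The groups did not overlap in 70 members (37%), 46 with every shGLDC99 array above every shGFP array and 24 below, where 46.2% of genes at or above 5 and 30.8% of all genes did not overlap. The share of changed members was thus close to that of all genes at or above 5. Those genes were brighter, with a median level of 6.70 against 5.88 for the members, and shares by level are given below. The split of the members leaned to rises where that of all genes leaned to falls. This leaning was not tested.

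With each array left out in turn, 7 to 9 members were changed rather than 25: 9 without shGFP a or shGFP c, 8 without shGFP b or shGLDC99 b, and 7 without shGLDC99 a or shGLDC99 c. Of the 25 calls, 6 were kept in all 6 such fits, 7 in some and 12 in none; these 12 were LINC01963, LINC00665, LINC00965, MIR17HG, MIR600HG, CTBP1-DT, ZNF667-AS1, SVIL-AS1, POPDC1-AS1, LOXL1-AS1, ASMTL-AS1 and ST7-AS1. Adjusted over all 31135 probe sets of the table, named or not, 16 were changed.

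The members were mostly dim. Their median level was 5.88, and 100 of them lay between 5 and 6, where 7 changed. In that range 210 of 2311 genes of any kind changed. Between 6 and 7 it was 8 of 52 members and 312 of 2108 genes, and above 7 it was 10 of 37 members and 536 of 3168 genes. Among the 37 brightest members 9 rose and 1 fell, while 209 rose and 327 fell among the 3168 genes of any kind above 7. Of the 907 genes of the symbol rule that lay under 5, 26 (2.87%) were past the test, 15 higher and 11 lower. Changes under 5 were few among genes of any kind as well. Of the 1259 changed genes among all 14779, 1058 were among the 7587 at or above 5. In 184 members both group means were at or above 5; of the other 5, ZNF674-AS1 was changed and had a control mean of 4.91.

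**Figure D1:**
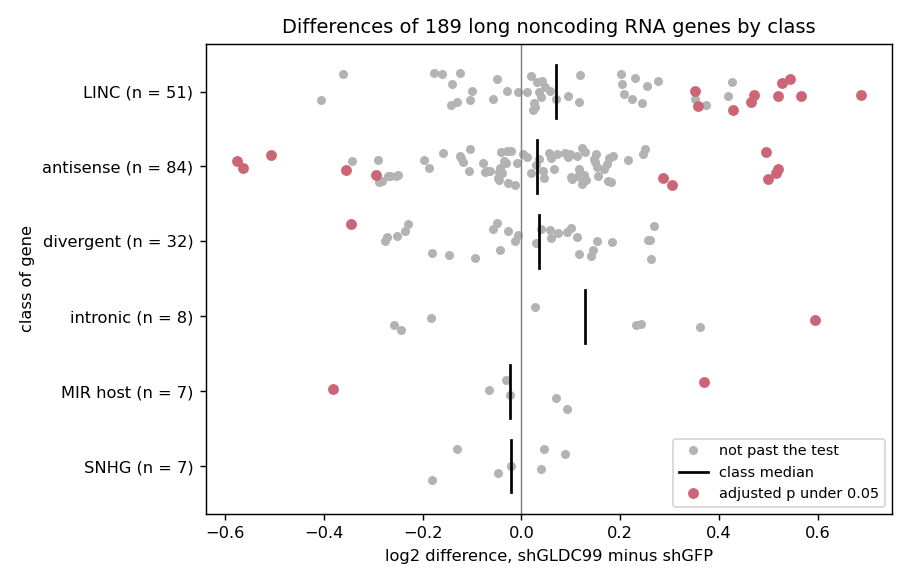
Log2 difference (shGLDC99 minus shGFP, x axis) of each of the 189 genes by class (y axis), with 3 arrays per group; red points have an adjusted p under 0.05, grey points do not, and black bars are class medians. The 10 red LINC points all lie to the right of 0, and the 7 SNHG points lie between -0.18 and 0.09.

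Of the 51 LINC genes 10 (19.6%) rose and 0 fell, where 5.81% of genes at or above 5 rose and 8.13% fell. In 21 all shGLDC99 arrays lay above all shGFP arrays, and in 3 they lay below. These 24 of 51 without overlap stand beside 46.2% of genes at or above 5. Among those 7587 genes 1605 lay above and 1903 below. The median level of the class was 6.56, against 5.88 for all members, and its median difference was 0.070. The difference was positive in 37 and negative in 14. When single arrays were left out, 5 to 7 of the LINC genes rose. The lower end, 5, came without shGFP b or shGLDC99 c.

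LINC01203 showed the highest rise among all members. It was 5.95, 5.86 and 5.74 in the shGFP arrays and 6.59, 6.47 and 6.55 in the shGLDC99 arrays. The groups were apart by more than their whole ranges. The difference was 0.69 ± 0.078 (SE), a 1.61-fold rise (limma adjusted p = 0.00681), and it remained past the threshold whichever array was left out.

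LINC00632 is the locus from which the circular RNA CDR1-AS, a binder of miR-7, is made. Its probe set read 6.71, 6.77 and 6.73 in control cells and 7.28, 7.21 and 7.30 in shGLDC99 cells, with no overlap. The rise was 0.53 ± 0.061 (SE; limma adjusted p = 0.00716). Whether that probe set reads the linear or the circular RNA is not given in the sources used here.

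LINC00958, a transcript studied in bladder and other carcinomas, read 6.78, 6.86 and 6.95 in the shGFP arrays and 7.50, 7.32 and 7.40 in the shGLDC99 arrays. All 3 shGLDC99 values lay above the highest control, and the difference was 0.54 ± 0.079 (SE; limma adjusted p = 0.0115). LINC01257 moved by 0.47 ± 0.061 (SE), from 7.05, 7.000 and 7.02 to 7.49, 7.54 and 7.45 (limma adjusted p = 0.00885). Both groups of that gene were tight, with SDs of 0.0265 and 0.0416 (n = 3 each).

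LINC00641 was the brightest LINC gene past the test. Its levels were 8.95, 8.94 and 8.93 in control arrays and 9.33, 9.44 and 9.46 in shGLDC99 arrays, a rise of 0.46 ± 0.065 (SE; limma adjusted p = 0.0106). Its control arrays spread less (SD 0.00917, n = 3) than its shGLDC99 arrays (SD 0.0706, n = 3). LINC01203, LINC00632, LINC00958, LINC01257 and LINC00641 were the LINC genes that remained past the threshold with each of the 6 arrays left out in turn.

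LINC01512 read 6.51, 6.66 and 6.75 in shGFP arrays and 7.27, 7.09 and 7.25 in shGLDC99 arrays, a rise of 0.57 (limma adjusted p = 0.0154). LINC00997 read 6.63, 6.43 and 6.50 in control and 6.99, 7.000 and 7.12 in shGLDC99 arrays, a rise of 0.52 (limma adjusted p = 0.0134). Neither pair of groups overlapped, and each gene stayed past the threshold in 3 of the 6 fits without an array.

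The other 3 LINC rises were smaller and were lost whichever array was left out. LINC00965, a dim gene, went from 5.19, 5.35 and 5.36 to 5.80, 5.69 and 5.70 (0.43, limma adjusted p = 0.0223). LINC00665, studied in liver and other carcinomas, went from 6.91, 6.95 and 6.92 to 7.37, 7.25 and 7.23 (0.36, limma adjusted p = 0.0244). LINC01963 went from 7.60, 7.71 and 7.71 to 8.11, 8.04 and 7.92 (0.35, limma adjusted p = 0.0395). In all 3 the lowest shGLDC99 array was above the highest control array.

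The 4 LINC genes with the highest signal were not past the test. LINC00987 had a mean of 11.40 over the 6 arrays and a difference of -0.14 (limma adjusted p = 0.351). LINC01347, LINC01000 and LINC01061 had means of 11.39, 10.90 and 10.35 and differences of 0.035, 0.027 and -0.006, with limma adjusted p from 0.787 to 0.965. A probe set's level depends on its probes as well as on the RNA, so these levels are no ranking of transcript amounts. That is plain in genes with several probe sets: the second probe set of LINC00987 read 4.18 where the first read 11.40, and the 3 probe sets of LINC01347 read 11.39, 8.85 and 7.00. The differences above are those of the brightest probe set. In the dimmest probe set of LINC00987, LINC01347, LINC01000 and LINC01061 they were 0.14, 0.18, 0.28 and -0.22. In the second of the 3 probe sets of LINC01347, LINC01000 and LINC01061 they were 0.052, 0.039 and -0.0835.

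Among the other bright members, LINC02525 was 8.60, 8.67 and 8.87 in control arrays and 9.12, 9.16 and 8.98 in shGLDC99 arrays. Its groups did not overlap, and its difference of 0.37 missed the threshold (limma adjusted p = 0.0589). LINC00294 likewise had groups that did not overlap, with a difference of 0.28 (limma adjusted p = 0.0623). For LINC00265, LINC03009 and THAP9-AS1 the differences were 0.058, -0.057 and 0.18, with limma adjusted p of 0.618, 0.702 and 0.196.

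**Figure D2:**
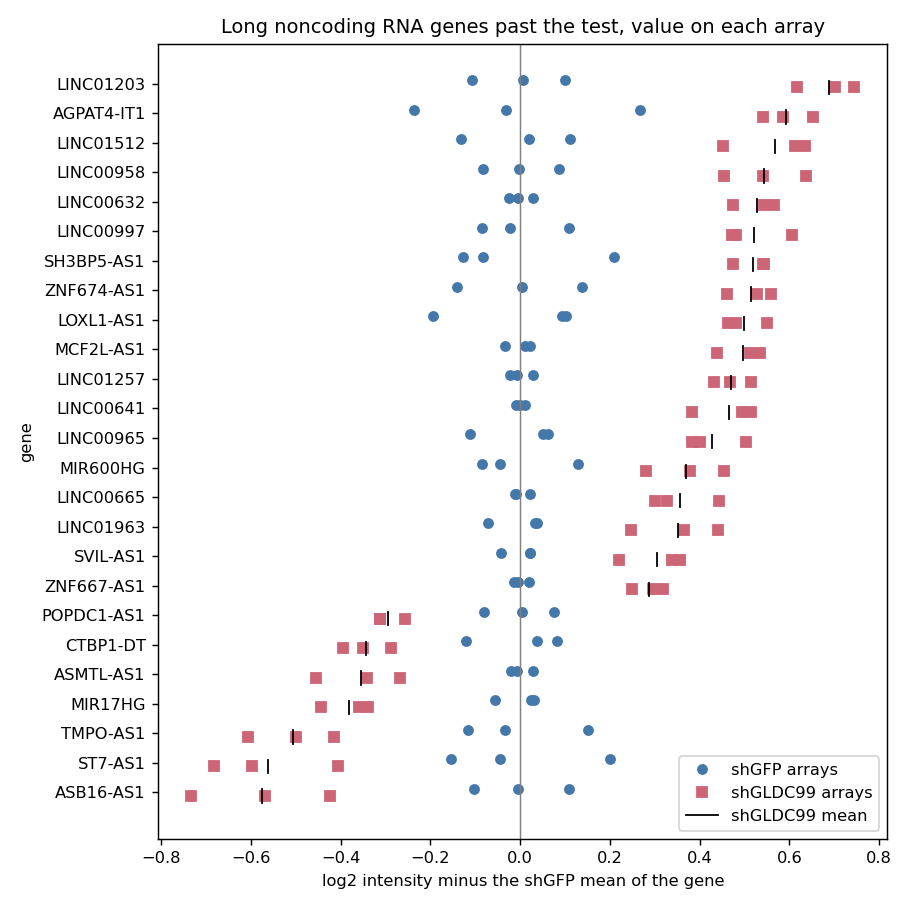
Log2 intensity on each array minus the gene's shGFP mean (x axis) for the 25 changed genes (y axis); blue circles are the 3 shGFP arrays, red squares the 3 shGLDC99 arrays, and black ticks the shGLDC99 means. In each of the 25 genes the red squares lie wholly to one side of the blue circles, from -0.58 for ASB16-AS1 to 0.69 for LINC01203 at the mean.

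The nearest measured protein-coding genes on each side of the 12 changed LINC and MIR host genes were looked up in the RefSeq order. Of 25 such neighbours 1 rose and 0 fell, against 3.72% and 4.8% of all genes. The neighbour that rose was SPRY2, a feedback inhibitor of receptor tyrosine kinase signalling, with a difference of 0.90 (limma adjusted p = 0.00962). It is the next measured protein-coding gene in order on the left side of MIR17HG. Distances were not taken into account, so a neighbour may lie far from the noncoding gene. VEGFA, the endothelial growth factor gene on the left of LINC01512, differed by 0.26 with groups that did not overlap (limma adjusted p = 0.0741). TEAD1, a DNA-binding partner of YAP on the left of LINC00958, differed by -0.018 (limma adjusted p = 0.897). Noncoding genes, and genes with no name in the annotation used here, may lie closer than these neighbours.

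Among the 84 antisense genes 6 rose and 5 fell (13.1% changed), with a median difference of 0.032. The rises were MCF2L-AS1, LOXL1-AS1, ZNF674-AS1, SH3BP5-AS1, SVIL-AS1 and ZNF667-AS1. The falls were ASB16-AS1, ST7-AS1, TMPO-AS1, ASMTL-AS1 and POPDC1-AS1. For the -AS, -DT and -IT genes together, 90 of 124 named partner genes were measured, 60 of antisense, 25 of divergent and 5 of intronic members. Of these 90 partners 4 rose and 6 fell. This 11.1% lies between the 8.52% of all genes and the 13.9% of genes at or above 5 that changed, and 17 of the partners were under 5. With each array left out in turn, 2 to 3 partners changed.

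Both partners changed in 3 pairs, the noncoding gene alone in 8, the coding partner alone in 7, and neither in 72. The signs of the differences were the same in 63 of 90 pairs, and over these 90 pairs the differences correlated with r = 0.338. The partners share arrays and chromosomal region, so this is a description of these arrays. In 18 pairs with a changed partner on either side, the difference between noncoding and coding gene was computed within each array and compared between groups. These pairs were chosen on a change in 1 of the 2 genes, which favours a shift between them. The groups did not overlap in 10 of the 18, against 11 of the other 72 pairs and 21 of all 90 (23.3%), each of the 10 with an exact two-sided permutation p of 0.1, the smallest that 3 against 3 arrays allow, and 0.18 after adjustment over the 18.

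TMPO-AS1 fell together with TMPO, which encodes lamina-associated polypeptide 2 of the inner nuclear membrane. The antisense gene read 6.01, 5.74 and 5.82 in control arrays and 5.35, 5.25 and 5.44 in shGLDC99 arrays, while TMPO read 8.62, 8.65 and 8.58 in control and 8.02, 8.17 and 8.11 in shGLDC99 arrays. Neither gene's groups overlapped. The differences were -0.51 ± 0.094 (SE; limma adjusted p = 0.0241) for TMPO-AS1 and -0.52 ± 0.067 (SE; limma adjusted p = 0.00885) for TMPO. Within arrays the difference between them moved by 0.010 (exact two-sided permutation p = 1).

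SH3BP5-AS1 and SH3BP5 moved in opposite directions. SH3BP5 encodes a JNK-binding protein that also activates Rab11. SH3BP5-AS1 was 5.49, 5.53 and 5.82 in shGFP arrays and 6.15, 6.15 and 6.09 in shGLDC99 arrays, a rise of 0.52 ± 0.10 (SE; limma adjusted p = 0.0276). SH3BP5 was 5.66, 5.38 and 5.30 in control and 4.93, 4.82 and 5.01 in shGLDC99 arrays, a difference of -0.53 ± 0.11 (SE; limma adjusted p = 0.0341). Neither gene had overlapping groups. The difference within arrays moved by 1.05, with no overlap (exact two-sided permutation p = 0.1, the smallest possible).

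ST7-AS1 and ST7 were opposite in the other sense. ST7-AS1 fell from 5.61, 5.501 and 5.86 to 5.06, 5.25 and 4.97, with a difference of -0.56 ± 0.12 (SE; limma adjusted p = 0.0344). ST7, a gene named for suppression of tumorigenicity, rose from 7.10, 7.004 and 7.05 to 7.40, 7.45 and 7.33, by 0.34 ± 0.066 (SE; limma adjusted p = 0.029). Both sets of groups were apart, and the difference within arrays moved by -0.90 (exact two-sided permutation p = 0.1). Whether probes of a noncoding gene also bind its partner's transcript cannot be read from these values, and probe positions were not used here.

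**Figure D3:**
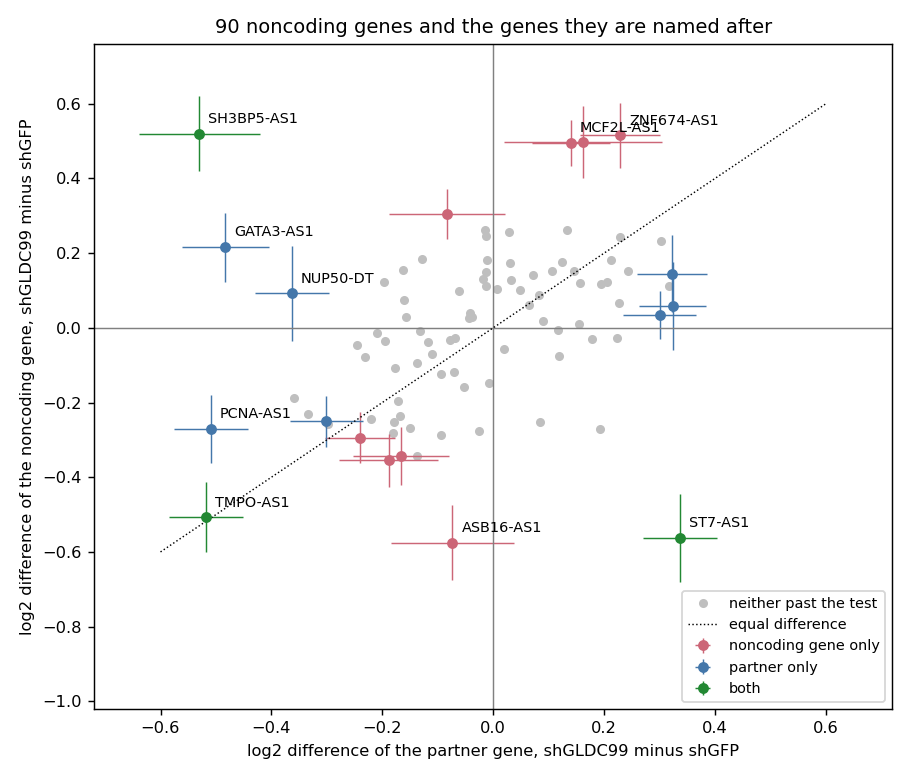
Log2 difference (shGLDC99 minus shGFP) of the noncoding gene (y axis) against that of the gene it is named after (x axis) for 90 pairs; coloured points have a changed partner on one side or both, bars are standard errors, and the dotted line marks equal differences. TMPO-AS1 lies on the line at -0.51, while SH3BP5-AS1 and ST7-AS1 lie in the quadrants of opposite sign.

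In 8 pairs the noncoding gene changed and its partner was not past the test. MCF2L-AS1 rose from 7.19, 7.20 and 7.15 to 7.71, 7.69 and 7.62, by 0.50 ± 0.062 (SE; limma adjusted p = 0.00835). MCF2L itself was dim, at 4.81, 4.96 and 4.82 in control and 5.07, 4.97 and 4.98 in shGLDC99 arrays, and differed by 0.14 (limma adjusted p = 0.29). MCF2L-AS1 was the antisense gene that remained past the threshold with each array left out.

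ASB16-AS1 had the deepest fall among the members. Its values were 7.06, 7.27 and 7.16 in shGFP arrays and 6.43, 6.59 and 6.74 in shGLDC99 arrays. All shGLDC99 values were below the lowest control, and the difference of means was -0.58 ± 0.10 (SE) (limma adjusted p = 0.0207). ASB16, which encodes an ankyrin repeat and SOCS box protein, had overlapping groups and differed by -0.074 (limma adjusted p = 0.742).

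ZNF674-AS1 was 4.76, 4.91 and 5.04 in control and 5.46, 5.37 and 5.43 in shGLDC99 arrays, a rise of 0.52 (limma adjusted p = 0.0185). ZNF674, a zinc finger gene whose promoter window shares 168 of the 300 bases shown above, differed by 0.23 at a level under 5 (limma adjusted p = 0.106). LOXL1-AS1, antisense to a lysyl oxidase-like gene and known from exfoliation syndrome, was 5.94, 5.95 and 5.65 in control and 6.40, 6.33 and 6.31 in shGLDC99 arrays, a rise of 0.50 (limma adjusted p = 0.0273). The lowest control, shGFP c, stood apart from the other two, and LOXL1 overlapped between groups at 0.16 (limma adjusted p = 0.555).

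SVIL-AS1 rose from 7.04, 6.97 and 7.04 to 7.36, 7.37 and 7.24 (0.30, limma adjusted p = 0.0413). SVIL, the gene of the actin-binding protein supervillin, was near 3.4 in both groups and differed by -0.083 (limma adjusted p = 0.687). ZNF667-AS1, the brightest antisense gene, went from 9.58, 9.58 and 9.61 to 9.84, 9.91 and 9.89 (0.29, limma adjusted p = 0.0332); its partner was not measured by name here.

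ASMTL-AS1 fell from 6.15, 6.16 and 6.20 to 5.83, 5.71 and 5.90 (-0.35, limma adjusted p = 0.0309), and its second probe set, at a mean of 5.65, differed by -0.16. ASMTL, an acetylserotonin methyltransferase-like gene, differed by -0.19 (limma adjusted p = 0.261). POPDC1-AS1 fell from 7.17, 7.08 and 7.24 to 6.91, 6.85 and 6.85 (-0.29, limma adjusted p = 0.0462). Its partner POPDC1, which encodes a cyclic AMP-binding membrane protein, was 10.32, 10.28 and 10.39 in control and 10.08, 10.06 and 10.12 in shGLDC99 arrays. POPDC1 also had groups that did not overlap, with a difference of -0.24 that missed the threshold (limma adjusted p = 0.0641).

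In 7 pairs the coding partner changed and the noncoding gene did not pass the test. GATA3, a transcription factor of the adrenergic program of neuroblastoma, was 9.52, 9.73 and 9.71 in control arrays and 9.20, 9.12 and 9.19 in shGLDC99 arrays, a difference of -0.48 ± 0.078 (SE; limma adjusted p = 0.0161). GATA3-AS1 was 6.23, 6.31 and 6.47 in control and 6.68, 6.49 and 6.48 in shGLDC99 arrays. All its shGLDC99 values lay above all its controls, with a difference of 0.22 ± 0.093 (SE; limma adjusted p = 0.216). Of the 300 bases of its promoter window 291 also lie in that of GATA3. The difference within arrays moved by 0.70 (exact two-sided permutation p = 0.1, the smallest possible).

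PCNA, the sliding clamp of DNA replication, fell by 0.51 ± 0.066 (SE; limma adjusted p = 0.00924), from 10.41, 10.41 and 10.36 to 9.86, 9.97 and 9.83. PCNA-AS1 was 5.52, 5.79 and 5.62 in control arrays and 5.29, 5.47 and 5.35 in shGLDC99 arrays. These groups did not overlap either, at -0.27 (limma adjusted p = 0.126). NUP50, a nucleoporin of the nuclear basket, fell by 0.36 (limma adjusted p = 0.0233), while NUP50-DT overlapped between groups at 0.092 (limma adjusted p = 0.717).

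The 4 remaining partners were KDM7A, STARD4, TMEM30A and PCOLCE. KDM7A, a histone demethylase, rose by 0.32 (limma adjusted p = 0.025) with KDM7A-DT at 0.058. STARD4, a cholesterol transfer protein, rose by 0.30 (limma adjusted p = 0.0404) with STARD4-AS1 at 0.035. TMEM30A, a subunit of phospholipid flippases, rose by 0.32 (limma adjusted p = 0.0292) with TMEM30A-DT at 0.15. PCOLCE, an enhancer of procollagen processing, fell by 0.30 (limma adjusted p = 0.0404), and PCOLCE-AS1 was lower in every shGLDC99 array, with a difference of -0.25 (limma adjusted p = 0.0736).

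Divergent transcripts gave 1 fall and 0 rises among 32, or 3.12% changed. Among all genes at or above 5, 13.9% changed, with 8.13% falling and 5.81% rising. The class was dimmer than those genes, with a median level of 5.78 against 6.70, and the difference in shares was not tested. CTBP1-DT was 6.66, 6.50 and 6.70 in shGFP arrays and 6.33, 6.27 and 6.22 in shGLDC99 arrays, a difference of -0.34 ± 0.078 (SE; limma adjusted p = 0.0436); whichever array was left out, this call was lost. CTBP1, a transcriptional corepressor gene, was 6.04, 6.08 and 6.03 in control and 5.99, 5.94 and 5.71 in shGLDC99 arrays, and it too had groups that did not overlap, at -0.17 (limma adjusted p = 0.306). Of the 25 measured partners of divergent transcripts 2 rose and 1 fell.

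Promoter windows of both partners were listed for 69 of the 90 pairs. In 33 of them the windows shared between 69 and 293 bases, and 21 of the 33 had differences of the same sign; in the 36 without shared bases it was 28. Among pairs with shared bases 2 noncoding genes and 3 partners changed, with 0 pairs in which both did. In the 36 pairs without shared bases 6 noncoding genes and 5 partners changed, with both in 2 pairs. These counts are small, and the difference between the 2 sets of pairs was not tested. HAND2-AS1, divergent to the sympathetic transcription factor gene HAND2, showed differences of 0.087 for the noncoding gene and 0.082 for HAND2 (limma adjusted p = 0.471 and 0.455).

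Of the 8 intronic transcripts 1 rose and 0 fell, where 5.81% of genes at or above 5 rose and 8.13% fell. The gene that rose was AGPAT4-IT1. It read 5.27, 5.57 and 5.07 in control and 5.84, 5.89 and 5.96 in shGLDC99 arrays, 0.59 ± 0.13 (SE; limma adjusted p = 0.0389). Its control arrays spread more than those of the other changed members (SD 0.254, n = 3, against an SD of 0.0564 in shGLDC99 cells). AGPAT4 was not measured by name. In the 5 intronic pairs that were measured, 4 had differences of the same sign, among them MAPT-IT1 at 0.23 beside MAPT, the tau gene, at 0.30, and NEGR1-IT1 at -0.24 beside NEGR1 at -0.22; 0 of these 5 pairs held a gene past the test. The second probe set of MAPT-IT1, at a mean of 4.73, differed by -0.24, opposite to the first.

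Among the 7 microRNA host genes 1 fell and 1 rose, where 8.13% of genes at or above 5 fell and 5.81% rose. MIR17HG, a known target of MYC and MYCN, was 7.05, 7.05 and 6.97 in shGFP arrays and 6.66, 6.58 and 6.68 in shGLDC99 arrays. All 3 shGLDC99 values were below the lowest control. The fall was -0.38 ± 0.065 (SE), 1.30-fold (limma adjusted p = 0.0194); whichever array was left out it missed the threshold, with a difference between -0.41 and -0.35 over all alternatives tried. Its span holds the hairpins MIR17, MIR18A, MIR19A, MIR20A, MIR19B1 and MIR92A1, of which 0 had a named probe set, and they are not analysed here.

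MIR600HG rose from 6.28, 6.24 and 6.45 to 6.78, 6.70 and 6.60, by 0.37 ± 0.085 (SE; limma adjusted p = 0.0459), a call that was lost whichever array was left out and over all probe sets. It overlaps STRBP, a gene of an RNA-binding protein of spermatids and neurons, whose difference was 0.21 with groups that did not overlap (limma adjusted p = 0.151). The differences of MIR181A1HG, MIR4453HG, MIR550A3HG, MIR9-3HG and MIR7-3HG lay between -0.066 and 0.091, and each had overlapping groups.

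Within the MIR181A1HG locus, the probe set of the hairpin MIR181B1 rose and that of the host was not past the test. The host was 7.35, 7.42 and 7.20 in control arrays and 7.34, 7.16 and 7.40 in shGLDC99 arrays, a difference of -0.023 ± 0.094 (SE; limma adjusted p = 0.914). The probe set of MIR181B1 was 6.76, 6.75 and 6.71 in control and 7.19, 7.31 and 7.10 in shGLDC99 arrays, a rise of 0.46 ± 0.073 (SE; limma adjusted p = 0.0156) that was lost without shGFP a, b or c or without shGLDC99 a. The neighbouring MIR181A1, whose miR-181a-5p has the same seed as miR-181b-5p, had a mean of 1.93 over the 6 arrays and differed by -0.16 (limma adjusted p = 0.611). Labelled total RNA on such arrays may show hairpin precursors as well as mature microRNA, and the difference between host and hairpin was not tested. The probe sets of MIR550A3, MIR9-3 and MIR7-3 were under 5 and differed by 0.24, -0.005 and 0.065, with overlapping groups.

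**Figure D4:**
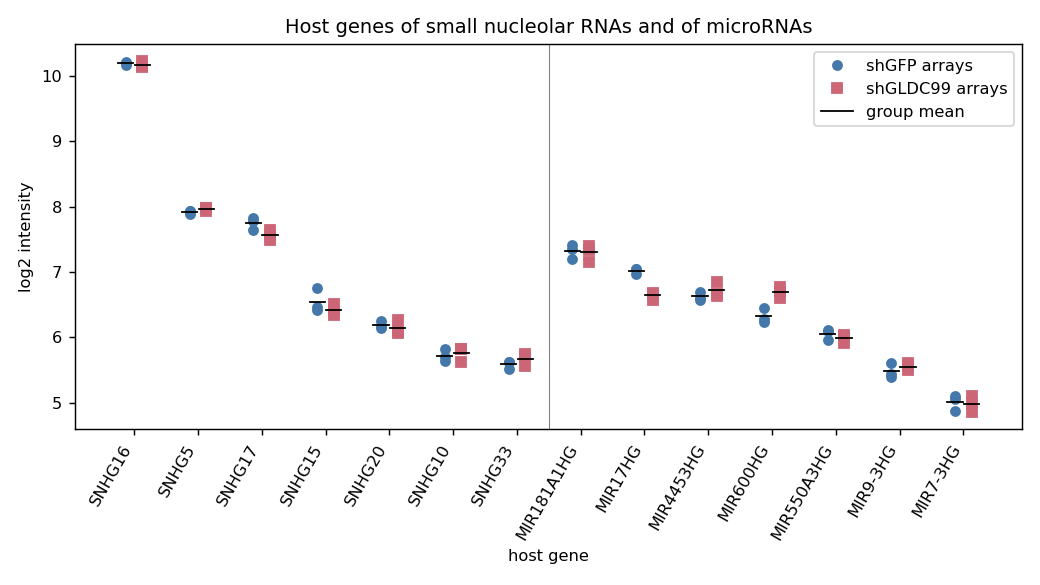
Log2 intensity (y axis) of the 7 SNHG genes and the 7 microRNA host genes (x axis, each ordered by level) on the 3 shGFP arrays (blue circles) and the 3 shGLDC99 arrays (red squares), with black lines at group means. MIR17HG falls from 7.02 to 6.64 and MIR600HG rises from 6.32 to 6.69, while the groups of every SNHG gene overlap.

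The 7 SNHG genes had overlapping groups throughout, and 0 were past the test. At an unadjusted limma p under 0.05 it was also 0. Among genes at or above 5, 46.2% had groups that did not overlap and 13.9% were past the test. SNHG16, the brightest, was 10.17, 10.21 and 10.20 in control and 10.22, 10.14 and 10.16 in shGLDC99 arrays, a difference of -0.021 ± 0.060 (SE; limma adjusted p = 0.875). SNHG5 was 7.89, 7.93 and 7.94 in control and 7.98, 7.93 and 7.98 in shGLDC99 arrays, at 0.045 ± 0.059 (SE; limma adjusted p = 0.699). SNHG17 was the most different, at 7.83, 7.64 and 7.78 in control and 7.65, 7.57 and 7.49 in shGLDC99 arrays, or -0.18 ± 0.080 (SE; limma adjusted p = 0.229). SNHG15, SNHG20, SNHG10 and SNHG33 differed by -0.13, -0.047, 0.041 and 0.089. The small nucleolar and Cajal body RNAs within these hosts had 0 named probe sets, so the products of the introns are not described.

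The start regions of the 3 brightest SNHG genes are shown to set their listed starts beside the pyrimidine start that the class is known for (RefSeq, GRCh38.p14; 20 bases before the start in lower case, 20 from the start on in capitals).
SNHG16, chr17:76557744-76557783, plus strand: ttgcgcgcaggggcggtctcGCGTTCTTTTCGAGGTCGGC
SNHG5, chr6:85678714-85678753, minus strand: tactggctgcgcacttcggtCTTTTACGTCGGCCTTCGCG
SNHG17, chr20:38435309-38435348, minus strand: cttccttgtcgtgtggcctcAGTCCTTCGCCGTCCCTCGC
The letters CTTT on the gene's strand, within 10 bases before or after a listed start, occurred in 3 of the 6 SNHG genes with a window: at the start of SNHG5, 6 bases into SNHG16, and before the start of SNHG33. Of all 35116 windows, counted singly, 9.07% held them. An SNHG gene was counted once if any of its windows held them, so the shares are not like for like. This is a match of letters and says nothing of regulation.

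A window was listed for 153 of the 189 members and for 17 of the 25 changed ones. CCAAT on either strand was found in at least 1 window of 41.8% of these 153 members. It was found in 4 of 11 that rose and 1 of 6 that fell. Of all windows, counted singly, 34.6% held it. A gene with several windows has more chances to hold the letters than a single window, so these shares are not like for like.

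The proteins that make, process and degrade these RNAs were followed in lists. Of the nuclear exosome and its RNA surveillance adaptors 19 of 26 genes were measured, 5 fell and 1 rose, with a median difference of -0.039. EXOSC8, a core ring subunit, fell from 7.81, 7.81 and 7.80 to 7.38, 7.30 and 7.40 (-0.44 ± 0.061 (SE), limma adjusted p = 0.0102). EXOSC5 and EXOSC9, of the same ring, fell, with differences of -0.42 and -0.35, as did the cap-associated adaptors ZC3H18 and SRRT, with -0.40 and -0.35. RBM7, the RNA-binding subunit of the nuclear exosome targeting complex, rose by 0.43 (limma adjusted p = 0.0382). The 6 changes of 19 stand beside 13.9% of genes at or above 5 that changed, since 0 of the 19 lay under that level.

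Of 14 measured genes for small nucleolar RNP proteins and their assembly 3 fell and 0 rose, with a median of -0.14. All 14 lay at or above 5, where 8.13% of genes fell. TGS1, which forms the trimethylated cap of small nuclear and nucleolar RNAs, fell by 0.39 ± 0.060 (SE; limma adjusted p = 0.0139). FBL, the methyltransferase fibrillarin, fell by 0.43 ± 0.078 (SE; limma adjusted p = 0.0231), and SHQ1, an assembly factor for box H/ACA particles, had a difference of -0.31 (limma adjusted p = 0.0359). The SNHG hosts described above were not past the test in the same arrays.

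Of 12 measured genes of nonsense-mediated decay and mRNA decay 2 fell and 1 rose, with a median of -0.12; 1 of the 12 lay under 5. For this list and those that follow, 8.13% of genes at or above 5 fell and 5.81% rose, and 4.8% and 3.72% of all genes. DCP2, the decapping enzyme, fell by 0.56 ± 0.067 (SE; limma adjusted p = 0.00751). CASC3, of the exon junction complex, fell by 0.31 (limma adjusted p = 0.0379), and XRN1, the cytoplasmic 5′ exonuclease, rose by 0.32 (limma adjusted p = 0.0431). In the microRNA pathway 1 of 9 measured genes changed: LIN28B, which blocks let-7 processing and is a neuroblastoma oncogene, fell by 0.27 (limma adjusted p = 0.04996, just under the threshold). Of 18 measured termination and Integrator genes 2 fell, NUDT21, a cleavage factor subunit, at -0.38 and SCAF4 at -0.29, with a median of 0.004. When single arrays were left out, 3 to 6 genes of all 6 lists changed rather than 19, and with all probe sets in the adjustment 9.

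A last list held 63 long noncoding RNAs known by name, of which 34 were measured and 5 belong to the 189 genes. In it 3 rose and 1 fell, with a median of 0.040. PWAR1, a transcript of the Prader-Willi region, rose from 5.34, 5.40 and 4.93 to 6.30, 6.31 and 6.42, by 1.12 ± 0.13 (SE), 2.17-fold (limma adjusted p = 0.00719). MALAT1, an abundant nuclear speckle RNA, rose from 11.25, 11.18 and 11.10 to 11.48, 11.52 and 11.70 (0.39, limma adjusted p = 0.0369), and this call was lost whichever array was left out. LINC-PINT, a p53-responsive transcript at a level under 5, rose by 0.37 (limma adjusted p = 0.0489). The gene that fell was TMPO-AS1, described above.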

How the data were processed

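Total RNA of 6 samples (3 shGFP, 3 shGLDC99) was hybridised to 1 array each. The deposited values are 1 number per probe set and array, read here as log2 intensity because their highest value is 13.28. Log base, background correction, normalization, summarisation method and genome build were not given in the sources used here. Partek was used, per the submitters' processing notes, with no version given. Of 31135 probe sets, 15098 carried a single gene symbol in the platform annotation (14779 genes), and the brightest probe set stood for each gene. Any probe set with several symbols was left out, so a gene read only by such a probe set counts as not measured. Groups were compared with limma 3.58.1 in R 4.3.3 (with the data.table package, version 1.17.8), with no covariates and no further normalization, after the model was tested on simulated data. Single values were compared with exact two-sided permutation tests. Names, gene order and sequences came from GRCh38.p14 sets of RefSeq, read in Python 3.11.15 with pandas 2.3.3, numpy 2.4.6 and matplotlib 3.10.9. Array medians were 4.28 to 4.33; correlations were 0.993 to 0.994 within groups and 0.988 to 0.990 between them. Precision is limited by having 3 arrays per group.

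The members, lists and tests were chosen with earlier results of these data known. The text names every changed member, every SNHG and microRNA host, the 12 brightest members, the 3 nearest to each side of the level limit, members whose partner changed, and up to 4 genes per list by adjusted p; further names were picked with values known. The alternatives were quantile normalization again, median centring, leaving out the dimmest 40% of genes, the mean of a gene's probe sets, a replicate block, an intensity trend, all probe sets, an adjusted p of 0.01, other level limits, and leaving out each array.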

Additional observations from a re-analysis of the deposited data

How the results depend on the processing

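The number of changed members, 25, became 29 after quantile normalization again, 24 after median centring, 24 with the mean of a gene's probe sets, 30 and 23 with level limits of 4.5 and 5.5, and 24 with both group means at 5. Without the dimmest 40% of genes it was 46 (32 rose, 14 fell, 19 LINC rises), with an intensity trend 41 (30, 11 and 18), over all probe sets 16 (3 fell), at an adjusted p under 0.01 it was 4 (4 rose, 0 fell, 3 LINC rises), and with no level limit 51 of 1096. Leaving out each array gave 7 to 9 changed members, 6 to 9 rises, 0 to 1 falls and 5 to 7 LINC rises. Changed partner genes, 10, became 17 without the dimmest 40% of genes, 23 with the trend, 5 over all probe sets, 2 at 0.01 and 2 to 3 without an array. Changed genes of the 6 lists, 19, became 29 with the trend, 9 over all probe sets, 2 at 0.01 and 3 to 6 without an array; MIR181B1, the 1 changed small RNA, was lost at 0.01 (0) and 0 to 1 were past the test without an array. The 10 pairs with differences apart within arrays became 12 after quantile normalization again. Without an array they became 10 to 14. That count could not fall, because groups that are apart stay apart with fewer arrays, so it is no check of stability. The replicate letters did not pair the samples (correlations of same-letter deviations -0.012, 0.018 and -0.0011); with the replicate block 1 member changed (1 rise, 0 falls, 1 LINC rise), with 0 partners, 2 list genes and 0 small RNAs. No difference of a gene past the test turned its sign under any of these settings; some small differences of genes not past it did.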

Other observations

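Outside the symbol rule, 69 other genes annotated as long noncoding RNA lay at a level of 5 or more, and 6 rose and 3 fell. These 9 of 69 stand beside 13.9% of all genes at or above 5 that changed (5.81% rose and 8.13% fell). The following were chosen after their values were seen. PURPL, a p53-induced transcript known to restrain p53, was below the level of 5 in both groups, at 2.38, 2.65 and 2.80 in the shGFP arrays and 4.65, 4.30 and 4.34 in the shGLDC99 arrays. Its difference of 1.82 ± 0.14 (SE; limma adjusted p = 0.00228) was larger than that of any of the 189 genes. EWSAT1, a transcript named for Ewing sarcoma, had a mean of 2.995 in control and 3.77 in shGLDC99 arrays, a difference of 0.77 (limma adjusted p = 0.00926). Both genes are counted neither among the members nor in their shares.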
